A study of Oncorhynchus kisutch with 226 samples.

Results

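Livers of 7 coho salmon (Oncorhynchus kisutch) caught in winter were set against livers of 10 coho salmon caught in fall, all labelled with the year 2009 and with the west coast area, WCVI. The members were chosen by the area, season and year labels, and the 17 fish were 17 of the 226 arrays of the series. Each array carried the liver RNA of 1 fish beside a pooled liver reference. The value of a probe is a log2 ratio, likely of the fish over the pool, so that a difference of 1 is a 2-fold difference. Probes are named by the column and row of their spot. No probe identifier was found in the gene table at hand, so no gene is named, and the liver label could not be checked against marker genes.

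The winter fish were 4 females and 3 males. Of these, 5 were labelled Hatchery and 2 Wild, and the stock label was Puget_Sound for 6 and North for 1. They were caught between 48.24 and 48.375 degrees of latitude. The fall fish were 6 females and 4 males, 9 labelled Wild and 1 Hatchery. Their stock labels were Puget_Sound, Columbia, North, Oregon and ECVI, with 2 fish each, and 8 of the 10 were caught at 49.08 degrees, 1 at 48.338 and 1 at 49.835. In both groups all fish were labelled as saltwater fish. The middle Strait of Georgia, the other area with winter fish, gave 5 winter and 19 fall fish of 2009. Its winter fish were 4 Wild males and 1 Hatchery female. Its fall females were 6 Wild and 2 Hatchery, and its fall males 4 Wild and 7 Hatchery, with S_Main, ECVI and Fraser among the stock labels of its fall fish. Stock was not compared between the winter and fall fish of that area. In addition, 10 west coast fish of summer 2009 were used for levels before fall. Of the summer fish 9 were Wild and 1 Hatchery, with the stock label Columbia for 8, Oregon for 1 and North for 1, so stock changed along with season. Each fish was a separate sample, so p-values measure the spread between fish. Several fish of a season shared a slide, however, so their arrays were not fully independent, and counts with slides as units are given below.

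Coho salmon hatch and grow in rivers and spend their later life at sea, where they feed and grow through their first fall and winter. The liver stores glycogen and fat, makes most plasma proteins and releases insulin-like growth factor under the control of growth hormone. In females that begin to mature it also makes the egg yolk precursor and egg envelope proteins in response to oestrogen. In whole liver, fewer cells of a type and less RNA per cell cannot be told apart.

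Winter fish were larger than fall fish. Fork length ranged from 29.9 to 38.0 cm in winter fish with a median of 35.4 cm, against 24.6 to 35.2 cm with a median of 30.2 cm in fall fish. The means were 34.7 ± 2.80 cm in winter and 30.1 ± 2.86 cm in fall (SD, n = 7 and 10), a difference of 4.59 cm (two-sided exact permutation test, p = 0.00612, adjusted p = 0.0162 over 4 measures). Body mass averaged 534 ± 108 g in winter fish and 370 ± 110 g in fall fish, a difference of 164 g (exact permutation test, adjusted p = 0.0162). Condition factor, the mass for a given length, averaged 1.26 ± 0.0592 in winter and 1.31 ± 0.106 in fall fish and did not pass the test (exact permutation test, adjusted p = 0.279). The length difference was 8.0 cm in males, with 37.0 cm in winter against 29.0 cm in fall, and 2.13 cm in females, with 33.0 cm in winter against 30.9 cm in fall. Neither sex passed the test alone (exact permutation tests, adjusted p = 0.0571 for the 3 and 4 males and 0.349 for the 4 and 6 females), and in males the unadjusted p of 0.0286 was the smallest that 35 assignments allow. The difference between the sexes was not tested.

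The arrays also differed in how many probes they measured. Winter arrays held values for 20321 to 30826 probes with a median of 25492, against 17618 to 24376 with a median of 21188 on fall arrays. The means were 25250 ± 3983 in winter and 20989 ± 2263 in fall (exact permutation test, adjusted p = 0.0162). Among females the difference was 7310 probes (26888 in winter and 19578 in fall, exact permutation test, adjusted p = 0.0381). Among males it was -39.8 probes (23066 in winter and 23106 in fall). Sex and slide were mixed here, since the winter males all shared a slide with winter female 6, whose array held 21188. Winter females 3, 5 and 7, on other slides, had 29647, 30826 and 25889. No slide held both winter and fall fish of the west coast. The winter fish lay on 4 slides, with fish 1, 2, 4 and 6 on the same one, and the fall fish lay on 5 slides, with fish 7 to 10 on the same one. Season therefore cannot be told apart from slide or from the place of catch, and origin and stock differed between the seasons as well.

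**Figure D1:**
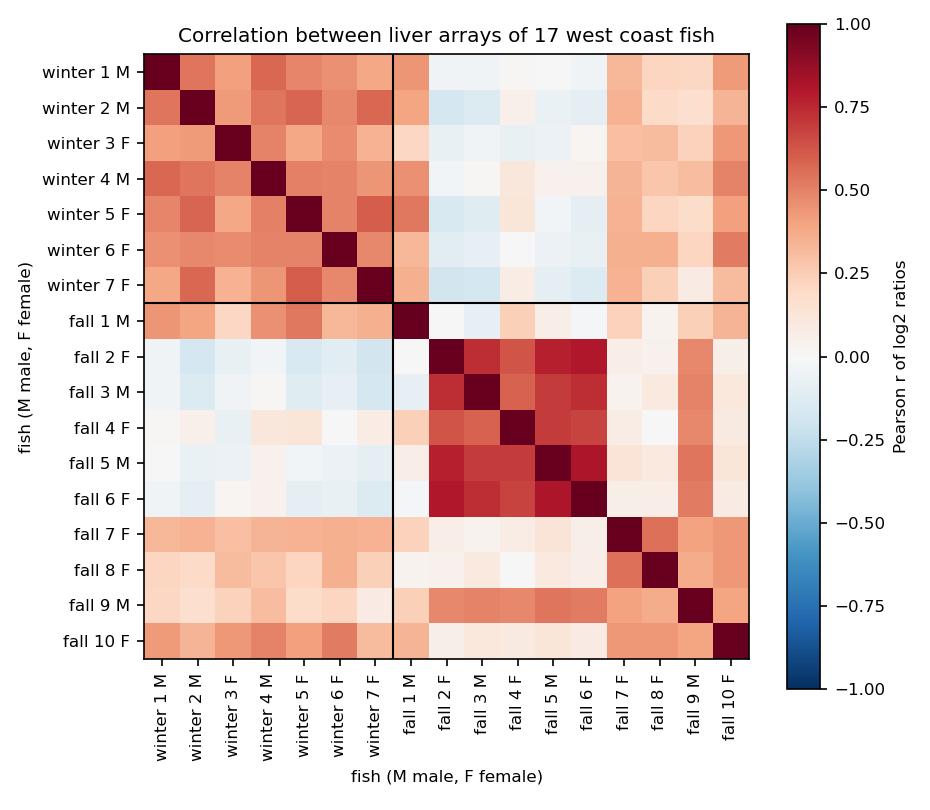
Pearson correlation between the liver arrays of the 17 west coast fish over 13630 probes measured on all of them, with winter fish first and fall fish after them on both axes, the colour giving r from -1 to 1. Fall fish 2 to 6 form a dark block with r between 0.59 and 0.81 and lie between -0.19 and 0.12 with every winter fish.

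Among the fall fish, 5 stood apart from the winter fish and from 4 of the other 5 fall fish, with fall fish 9 in between. Over 13630 probes measured on all 17 fish, arrays of winter fish correlated with each other at 0.35 to 0.60, with a median of 0.49. Arrays of fall fish 2 to 6 correlated with each other at 0.59 to 0.81, and with those of winter fish at -0.19 to 0.12. The other 5 fall fish, numbers 1 and 7 to 10, correlated with winter fish at 0.08 to 0.53, a range that overlaps the correlations among the winter fish. With fall fish 2 to 6, fall fish 1, 7, 8 and 10 correlated at -0.08 to 0.24. Fall fish 9 correlated with them at 0.48 to 0.54, above its correlations of 0.24 to 0.40 with the other 4 fall fish and of 0.08 to 0.31 with winter fish. The lowest correlation of any pair was -0.19.

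The leading axis of variation of the 17 arrays carried 44.1% of the variance and the second 9.99%. Winter fish had scores between -41.8 and -35.6 on the leading axis, a narrower range than in either set of fall fish. Fall fish 2 to 6 had scores between 51.9 and 78.3, and the other 5 fall fish between -30.2 and 17.1. Every winter fish scored below every fall fish, with winter fish 4 and fall fish 1 nearest to each other. Fall fish 2 to 6 were 3 females and 2 males of 4 stock labels, 4 Wild and 1 Hatchery, and lay on 3 slides that held no other of the 17 fish. Without these 5, winter fish were longer by 5.48 cm and heavier by 197 g (exact permutation tests, adjusted p = 0.0303 for both), and the difference of 4269 measured probes did not pass the test (adjusted p = 0.0926).

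**Figure D2:**
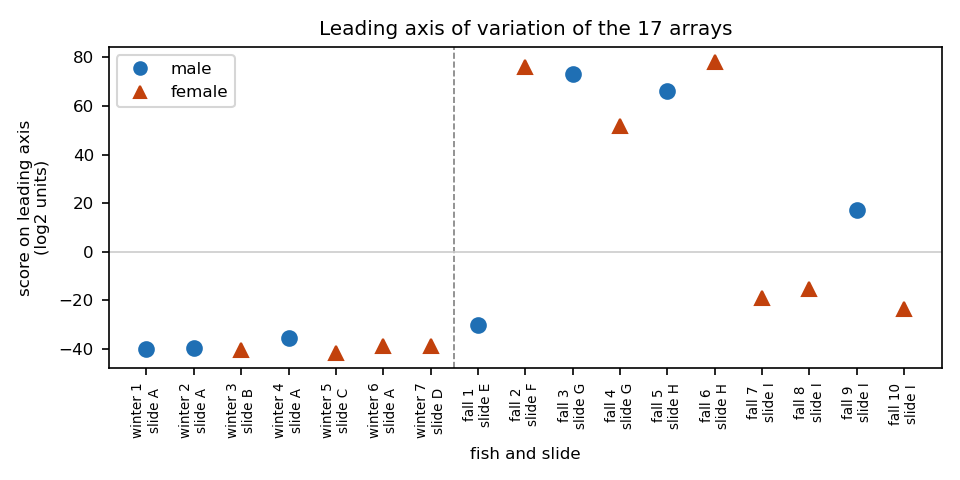
Score of each of the 17 fish on the leading axis of variation of their arrays (vertical axis, log2 units), with winter fish left of the dashed line, fall fish right of it, circles for males, triangles for females and slides lettered A to I. The 7 winter scores lie between -41.8 and -35.6, whatever the slide or sex, while fall fish 2 to 6 lie between 51.9 and 78.3.

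Fish of other groups on those 3 slides did not all follow the 5. The weights of the probes on the leading axis were correlated with each array of the series as a description. The 5 fall fish gave r between 0.61 and 0.81. On their slides, a summer fish of the southern Strait gave 0.71, a west coast summer fish 0.69, a middle Strait fall fish 0.50 and a Puntledge smolt 0.36, while a fall fish of the southern Strait gave -0.36 and a second fall fish of the middle Strait -0.38. On the slide of winter fish 7, which gave -0.47, a west coast summer fish gave 0.77, a Capilano smolt 0.66 and a fall fish of the northern Strait -0.44. Both signs thus occurred on 2 of the 3 slides and on the slide of winter fish 7, while on the third slide every r was positive. Only negative r occurred on the slides of fall fish 1 (-0.41 to -0.11), winter fish 3 (-0.49 to -0.25) and winter fish 5 (-0.465 to -0.29). Spring fish on the slides of fall fish 1 and winter fish 3 gave -0.33 and -0.25, against a median of 0.65 over 14 spring fish. The part of slide in the axis was not tested.

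Across seasons on the west coast, the 10 summer fish had a median r of 0.70 with the leading axis (-0.42 to 0.77), the 10 fall fish 0.47 (-0.28 to 0.81) and the 7 winter fish -0.44 (-0.47 to -0.36). In the middle Strait, the 5 winter fish had a median of -0.45 (-0.52 to -0.37) and the 19 fall fish of -0.29 (-0.42 to 0.72). The 21 summer fish of 2009 there had a median of -0.35 (-0.44 to 0.49). Winter fish of both areas were thus all on the negative side, but that side was not particular to winter. The axis was drawn from the west coast winter and fall fish, so their own sides are a description. Fall fish of both areas were spread over both sides. Because many results below lean on fall fish 2 to 6, most comparisons of winter with fall are given with and without them.

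Winter and fall livers differed in 2670 of 16802 probes tested, or 15.9%, at a Benjamini-Hochberg adjusted p below 0.05 in limma, which is the meaning of called here. Of these, 1577 were higher in winter, 9.39% of the probes tested, and 1093 were lower, 6.51%. With quantile normalization the balance turned, at 1169 higher and 1184 lower. Called probes with larger changes in the deposited ratios were mostly higher in winter. At a log2 difference of at least 1, 927 were higher and 333 lower, and at a difference of at least 2, 85 were higher and 6 lower. The median change was 1.07 for the called probes that were higher and -0.89 for those that were lower, against 0.03 over all probes tested.

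Without fall fish 2 to 6, limma called 0 probes between the 7 winter and the other 5 fall fish, and 1477 had an unadjusted p below 0.05. All 2670 called probes kept the sign of their difference there, as did 77.8% of all probes tested, but the samples are shared, so this is not separate evidence. The median size of the difference over the called probes was 0.98 with all 17 fish and 0.52 without the 5, and over all probes tested 0.39 and 0.23. Called probes followed the leading axis more often than others: 83.1% had a correlation with the leading score above 0.7 in size, against 31.9% of all probes tested, with the axis drawn from the same values. The 2220 called probes above that size had a median difference of 1.01 in size, and of 0.48 without the 5. The 450 at or below it, 237 higher and 213 lower in winter, had a median difference of 0.84 in size, and of 0.72 without the 5. Fall fish 2 to 6 lie farthest out on the axis. A smaller loss at probes that follow it less is therefore in part built into the split, and these values are a description.

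The count of called probes also depended on single fish. It was 4251 without fall fish 1, 1233 without fall fish 2, 1657 without fall fish 3, 1436 without fall fish 5 and 1451 without fall fish 6, and 1620, 1331 and 1363 without winter fish 3, 5 and 7. Without the slide of 4 winter fish 0 probes were called by limma (3949 at an unadjusted p below 0.05), and without the slide of 4 fall fish 5320. With slides in place of fish as the units 43 were called, all of them among the 2670 called with fish as units. With all 226 arrays in the fit and slide as a fixed block 6 were called, of which 2 were among the 2670.

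**Figure D3:**
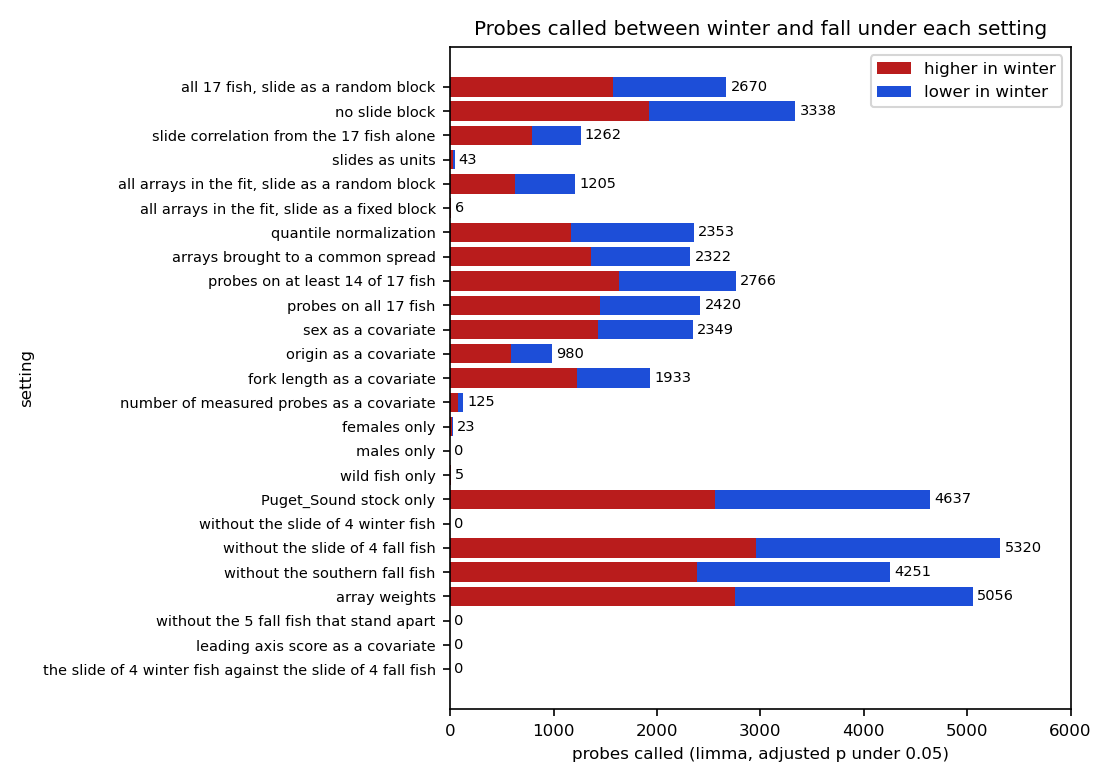
Number of probes called between winter and fall fish (horizontal axis, limma, adjusted p below 0.05) under each setting down the page, with red for probes higher in winter and blue for probes lower in winter. The count is 2670 with all 17 fish, reaches 5320 without the slide of 4 fall fish, and is 0 without the 5 fall fish that stand apart.

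The spread between fish was described without a test over the 13630 tested probes with a value in all 17 fish. The median SD was 0.39 in winter and 0.50 in fall, and the SD was smaller in winter for 69.2% of the probes. The median SD in fall was 0.39 without fall fish 2 to 6, and the SD was smaller in winter for 50.1%. At 108 of the 13630 probes, 0.792%, the values of winter and fall fish did not overlap, and all 108 were called. Winter fish were above every fall fish at 56 of these and below every fall fish at 52. The median difference at the 108 was 1.11 in size with all fish and 0.75 without fall fish 2 to 6. Winter and the remaining fall fish cannot overlap at these probes either, by the way the 108 were chosen, so the second value is a description.

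Called probes were spread over the array. With the array split into 4 parts by column and row, between 15.3% and 16.9% of tested probes were called in each part.

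The largest rise was at probe C087R153. Its log2 ratio was 1.08 to 2.19 in winter fish with a median of 1.81, against -3.71 to 1.50 in fall fish with a median of -2.28. All 7 winter fish were above the pool, and 6 of them were above every fall fish. Fall fish 2 to 6 lay between -3.71 and -3.29, and the other 5 fall fish between -1.28 and 1.50. The mean was 1.73 ± 0.36 in winter and -1.54 ± 2.19 in fall (SD, n = 7 and 10), and the fitted log2 difference was 3.44 (SE 0.73, 10.9-fold, limma adjusted p = 0.0116). Fitted differences weight slides and so are not exactly the difference of the means. Without fall fish 2 to 6 the difference was 1.35 (limma adjusted p = 0.431).

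C087R153 stood for a large set of probes. Across the 17 fish 427 tested probes correlated with it at r of 0.9 or more, and 167 at -0.9 or less, and its correlation with the leading score was -0.97. West coast summer fish ran from -4.22 to 1.08 at this probe with a median of -3.30. Its values in the middle Strait were 1.25 to 2.58 in winter fish, against -3.84 to 1.61 in fall fish.

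C040R129 had the second largest rise. It ran from -1.93 to 1.58 in winter fish with a median of 0.79, against -5.30 to 1.95 in fall fish with a median of -4.18. The groups overlapped, with fall fish 10 above every winter fish. Fall fish 2 to 6 lay between -5.30 and -4.01 and fall fish 9 at -4.36. The fitted difference was 3.42 (SE 0.99, 10.7-fold, limma adjusted p = 0.0285), and 1.21 without fall fish 2 to 6 (limma adjusted p = 0.758). It lost its call without fall fish 2, fall fish 6, winter fish 5 or winter fish 7 (limma adjusted p = 0.0565, 0.0507, 0.0607 and 0.0569), and 96 probes correlated with it at 0.9 or more and 16 at -0.9 or less.

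The probe with the largest drop, C022R069, did not follow that pattern. It ran from -3.86 to -1.43 in winter fish with a median of -2.71, against -1.61 to 1.43 in fall fish with a median of 0.14. Winter fish 4 alone lay above the lowest fall fish. The mean was -2.72 ± 0.72 in winter and -0.09 ± 0.98 in fall (SD, n = 7 and 10), with a fitted difference of -2.66 (SE 0.45, a 6.33-fold lower ratio, limma adjusted p = 0.00681). Without fall fish 2 to 6 the difference was -2.53, close to that with all fish, and did not pass the test (limma adjusted p = 0.22). No tested probe correlated with it at 0.9 or more, and 1 did at -0.9 or less. Its level was -3.56 to 2.66 in west coast summer fish with a median of 0.26.

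The second largest drop was at C264R049. Its values were -4.95 to -1.67 in winter fish with a median of -2.46, against -3.16 to 0.78 in fall fish with a median of -0.40. The groups overlapped through fall fish 10 at -3.16 and fall fish 3 at -1.86. The fitted difference was -2.14 (SE 0.59, a 4.41-fold lower ratio, limma adjusted p = 0.0246). It was -2.20 without fall fish 2 to 6 (limma adjusted p = 0.43), and the call was lost without winter fish 3, the lowest fish (-1.70, limma adjusted p = 0.0584). By season on the west coast its median was 1.47 in summer, -0.40 in fall and -2.46 in winter, in fish of different stocks.

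Another probe, C054R074, was chosen after its values were seen, because it had the smallest adjusted p. It ran from 0.41 to 2.84 in winter fish with a median of 0.83, against -2.07 to -0.59 in fall fish with a median of -1.26. Every winter fish lay above the pool and every fall fish below it, and fall fish 2 to 6 lay within the range of the other fall fish except for fish 5 and 6, the lowest. The fitted difference was 2.58 (SE 0.34, 5.99-fold, limma adjusted p = 0.0018), and 2.35 without the 5 (limma adjusted p = 0.24). The same probe overlapped widely between the seasons in the middle Strait, with -1.46 to 1.44 in winter fish and -2.19 to 2.64 in fall fish. The season difference did not differ between the areas by the test (2.10, SE 0.77, limma adjusted p = 0.265).

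**Figure D4:**
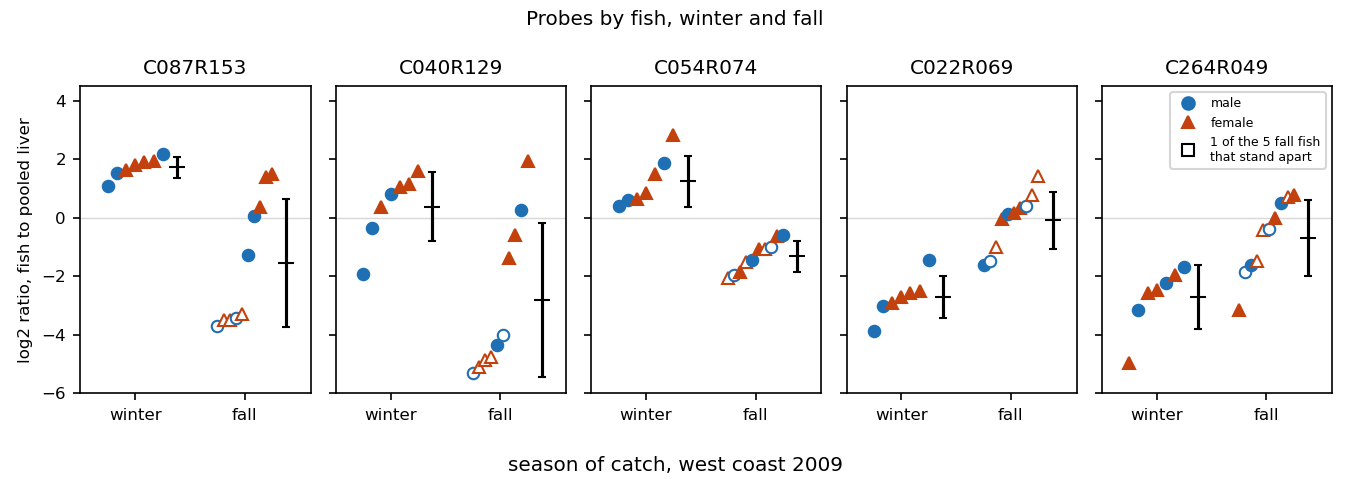
Log2 ratio to the pooled liver (vertical axis) of the 5 probes described, in winter fish at the left and fall fish at the right of each panel, with circles for males, triangles for females, open symbols for fall fish 2 to 6 and bars for the mean ± SD. At C087R153 the open symbols lie lowest, between -3.71 and -3.29, and at C040R129 they lie between -5.30 and -4.01 with fall fish 9 among them, while at C022R069 and C264R049 they are spread through the fall fish.

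The same 4 probes chosen by size of change were read within each sex. The difference between winter and fall females was 3.21 at C087R153, 3.64 at C040R129, -3.02 at C022R069 and -2.47 at C264R049. Between winter and fall males it was 3.74, 2.92, -2.16 and -1.62 at these probes in the same order. Each probe thus had 1 sign in both sexes. The 4 were chosen by their difference over these same fish, so equal signs, with or without fall fish 2 to 6, are not separate evidence. Leaving out fall fish 2 to 6, which left 3 fall females and 2 fall males, the differences were 0.64, 0.72, -2.95 and -2.34 in females and 2.19, 1.53, -2.02 and -1.93 in males, with the signs kept and none past the test (limma adjusted p between 0.171 and 0.939). Of the 8 differences with all fish, that of C022R069 in females passed the test (SE 0.52, limma adjusted p = 0.0346).

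Across all probes, winter and fall females differed at 28 of 16802 probes, 0.167%, with 15 higher and 13 lower in winter (limma). Winter and fall males differed at 0 of 16739 probes, 0.0%, with 2833 at an unadjusted p below 0.05, against 3927 in females. The counts without fall fish 2 to 6 were 1 in females, lower in winter, and 0 in males (limma, 1074 and 1380 at an unadjusted p below 0.05). C054R074 was among the called probes in females, with a log2 difference of 2.81 (SE 0.43, limma adjusted p = 0.0346). Whether the season difference itself differed between females and males was tested as an interaction, and limma called 0 of 16739 probes, 0.0%, with 305 at an unadjusted p below 0.05. The interaction gave 0 calls without fall fish 2 to 6 as well, with 857 of 16699 at an unadjusted p below 0.05 (limma). The 305 with all fish are fewer than the share of 0.05 that chance alone gives. The 0 calls therefore do not show equal season differences in the sexes.

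Winter females and winter males differed at 1 of 16739 probes tested, 0.00597% (limma, with 524 at an unadjusted p below 0.05), and it was lower in females. This probe, C108R116, had -1.46, -2.56, -0.90 and -1.61 in winter females 3, 5, 6 and 7, against 1.42, 1.45 and 2.17 in winter males 1, 2 and 4. The sexes did not overlap, and female 6 shared its slide with all 3 males. The fitted difference was -3.21 (SE 0.40, a 9.25-fold lower ratio in females, limma adjusted p = 0.00243). Between winter females and winter males 2 probes were called without fall fish 2 to 6 in the fit, and 3 without fall fish 10 or winter fish 2. The 524 with all fish are fewer than the share of 0.05 that chance alone gives, against 850 without fall fish 2 to 6 (limma).

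In fall fish, C108R116 ran from -1.34 to -0.63 in females with a median of -1.23, against -0.17 to 1.45 in males with a median of 0.14, again without overlap. The fitted difference there was -1.56 (SE 0.32, limma unadjusted p = 0.0001, limma adjusted p = 1.00). It thus failed only after adjustment over all probes tested. The change of the sex difference between seasons did not pass the test (limma unadjusted p = 0.00426, limma adjusted p = 1.00). Winter and fall fish of both sexes together differed by 0.06 at this probe. In the middle Strait, winter males 1, 2, 3 and 4 had -1.25, -1.05, -1.04 and 2.05, beside -1.81 in the winter female. All 4 males were thus above that female, but only 1 of them was as high as west coast winter males. Among fall fish of the middle Strait, 7 females ran from -1.96 to -0.90 and 11 males from -0.78 to 3.62, without overlap. The sex difference in the middle Strait was not tested. Fall females and fall males of the west coast differed at 0 of 16802 probes, 0.0% (limma, with 347 at an unadjusted p below 0.05).

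C207R010 was chosen after its values were seen, for its large difference between winter females and winter males. It had 5.81, 2.89, 1.38 and 5.90 in winter females 3, 5, 6 and 7, against -3.36, -3.02 and -1.13 in winter males 1, 2 and 4. The fitted difference of 6.13 did not pass the test over all probes (SE 1.14, limma adjusted p = 0.191). Fall females ran from -1.34 to 3.62 with a median of 0.46, against -4.23 to -1.66 in fall males. The fitted difference in fall was 2.89 (limma unadjusted p = 0.00499, limma adjusted p = 1.00). The winter female of the middle Strait stood at 3.78, against -4.22 to -0.51 in the 4 winter males there, and west coast summer fish, whose sex was not labelled, ran from -5.89 to -2.39. Values above the pool thus occurred in all 5 winter females of both areas, in 3 of 6 west coast fall females, and in no west coast male. In the middle Strait, fall females ran from -5.86 to -0.71 with a median of -2.34, against -5.84 to 2.86 with a median of -3.93 in fall males. Those sexes overlapped, and 1 male stood at 2.86, with no other fall fish of that area above the pool.

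**Figure D5:**
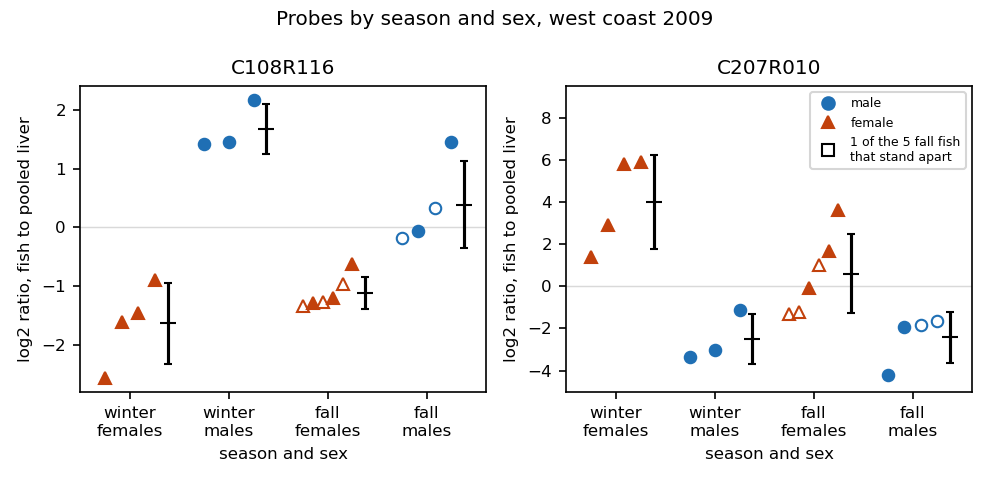
Log2 ratio to the pooled liver (vertical axis) of C108R116 and C207R010 in winter females, winter males, fall females and fall males of the west coast, with open symbols for fall fish 2 to 6 and bars for the mean ± SD. Females lie below males within each season at C108R116 and above them at C207R010, where the winter females reach 5.90.

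Whether the season difference was particular to the west coast was tested against the middle Strait. There, 4 of the 5 winter fish were wild males of the same slide and the fifth was a hatchery female. The stock labels S_Main and Fraser occurred among fall fish of the middle Strait and not among those of the west coast. Area therefore cannot be told apart from stock or, for those 4 winter males, from slide. No slide held both winter and fall fish of the middle Strait, so among those fish season cannot be told apart from slide either. In the fit of both areas, winter and fall differed at 2960 probes on the west coast (17.6% of 16802) and at 1910 in the middle Strait (11.4%, 1080 higher and 830 lower). The season difference of the west coast differed from that of the middle Strait at 6 of 16802 probes, 0.0357%, with 5 higher and 1 lower on the west coast (limma, 2003 at an unadjusted p below 0.05), and at 5 without west coast fall fish 2 to 6. For C087R153, C040R129, C022R069 and C264R049 the middle Strait differences between winter and fall were 2.51, 2.61, -1.47 and -1.72, and the differences between the areas were 0.93, 0.81, -1.18 and -0.45. All 4 had the sign of the west coast in the middle Strait, where C022R069 passed the test (limma adjusted p = 0.0331) and the other 3 did not (limma adjusted p between 0.0571 and 0.147). For none of the 4 did the difference between areas pass the test (limma adjusted p between 0.459 and 0.886).

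C148R164 had the largest positive difference between the areas. On the west coast it ran from 0.28 to 2.03 in winter fish with a median of 0.99, against -1.45 to 1.41 in fall fish with a median of -0.43. In the middle Strait it had -0.84, -1.88, -1.08, -0.50 and -2.68 in winter fish, against -1.09 to 2.33 in fall fish with a median of 0.66. Winter fish were thus high on the west coast and low in the middle Strait, with no overlap between the 2 sets of winter fish. The season difference was 1.35 on the west coast (17 fish, limma adjusted p = 0.0302) and -2.12 in the middle Strait (limma adjusted p = 0.00428), and the difference between them was 3.45 (SE 0.65, limma adjusted p = 0.0343).

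C028R072 was the probe with the negative difference. On the west coast it ran from -0.77 to 0.12 in winter fish and from -1.03 to 0.45 in fall fish, a difference of -0.16 (limma adjusted p = 0.607). In the middle Strait it had 0.71, 0.10, 1.16, 0.73 and 0.71 in winter fish, against -1.06 to 0.12 in fall fish, a difference of 1.25 (limma adjusted p = 0.000234). The difference between the areas was -1.41 (SE 0.28, limma adjusted p = 0.0372). Here winter and fall fish of the middle Strait differed, though on different slides, and no difference was called on the west coast. No probe was called between the areas without west coast winter fish 3, 4 or 7, and 12 were called without west coast winter fish 5. The counts were 3, 1 and 1 without middle Strait winter fish 1, 2 and 5, and 0 with males only (937 at an unadjusted p below 0.05).

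Empty cells made up 49.9% of the deposited values, so the share of fish in which a probe has a value was compared as well. Of 25778 probes measured in some but not all of the 17 fish, 0 passed Fisher's exact test after Benjamini-Hochberg adjustment, 0.0%, and the smallest adjusted p was 0.133. Unadjusted p fell below 0.05 at 1880 probes, of which 1842, 98.0%, were measured more often in winter fish. At 10 of the 25778 probes all 7 winter fish and no fall fish had a value, and at 0 of them all fall fish and no winter fish. The unadjusted p of those 10 probes, 5.14e-05 (Fisher's exact test), was the smallest that 7 and 10 fish allow. A single probe thus could not pass over 25778 tests, so the 0 calls do not show equal shares. Winter arrays measured more probes in all, as given above, and the part of this in the shares was not tested. How many of all 25778 probes were measured more often in winter was not taken, so the 98.0% has no background beside it. The same test passed 0 probes without fall fish 2 to 6, and 877 of the 890 at an unadjusted p below 0.05 were measured more often in winter fish. The smallest unadjusted p there, 0.00126 (Fisher's exact test, adjusted p = 0.601), was again the smallest that the group sizes allow.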

How the data were processed

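Per the labels' protocols, magnetic beads were used to extract liver RNA, which was then amplified. The RNA of every fish carried 1 Alexa dye, and the reference, pooled from all livers, carried a second one. The authors deposited 1 log2 ratio per probe and array. How images were quantified, how ratios were normalized and why cells are empty is not given in the sources used here. Base and numerator were read from the values: they run from -10.1 to 10.0, and the mean of a probe fell with its variance (slope -0.36 across probes), so log2 of fish over pool is likely, and with the opposite numerator every sign would turn.

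Of 43567 probes, 16802 measured on at least 80% of all 226 arrays were kept. The 17 arrays had medians between -0.004 and 0.018. The number of arrays limits the precision. limma 3.58.1 in R 4.3.3 (lmFit, then eBayes) was fitted per probe, with slide as a random block at a correlation of 0.139, estimated over all arrays from 3000 randomly drawn probes. Within 17 fish alone it was 0.368. Calls were made where p after Benjamini-Hochberg adjustment lay below 0.05. Other contrasts were sex within season, season by sex, and season by area. The fits were tested on simulated data with a slide correlation of 0.14 and probes drawn independently. That test does not cover an axis shared by many probes, as seen in the 17 fish, or their higher slide correlation. Body measures were compared by exact permutation over 19448 assignments, and measured shares by Fisher's exact test. A value after ± is an SD. Named probes are the 2 with the largest rise and the 2 with the largest drop among called probes with values in at least 6 winter and 8 fall fish, and 1 per direction for other comparisons. The comparisons, lists and rules were chosen with earlier results of these data known. The planned gene and cell marker lists were not used, since probes have no gene names here. Fish numbers follow the order of the records only. Alternatives were other slide treatments, normalizations, filters, covariates and subsets of fish.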

Additional observations from a re-analysis of the deposited data

Results flagged for a closer look

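In the middle Strait, 1 of the 5 winter fish lay far from the others at C108R116, the probe that differed between winter females and winter males of the west coast. It stood at 2.05 and the next highest fish at -1.04. It was the only such case in 46 groups of values examined for a single distant fish, and chance gives about 1 in 20.

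The season difference of the west coast and that of the middle Strait differed at 6 probes in the test of the difference itself. Of these, C148R164 differed by 3.45 (log2, west coast minus middle Strait), and C028R072 by -1.41. Without fall fish 2 to 6 of the west coast 5 probes were called in this test (limma, adjusted p below 0.05).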

How the results depend on the processing

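Without fall fish 2 to 6, with the leading score as a covariate, with only the slides of 4 winter and of 4 fall fish, with males only, and without the slide of 4 winter fish, limma called 0 probes between winter and fall (1477, 1090, 2719, 2416 and 3949 at an unadjusted p below 0.05). The first 3 of these were chosen after seeing the data. The leading score was drawn from the same 17 arrays, and every winter fish scored below every fall fish. As a covariate it therefore takes up season as well, so results with it cannot show whether a season difference remains. The count of 2670 was otherwise 1262 with the slide correlation of the 17 fish, 43 with slides as units, 1205 with all arrays in the fit and 6 with slide as a fixed block there. As a covariate, origin gave 980 and the measured probe number 125. It was 23 in females, 5 in wild fish and 4637 in Puget_Sound fish (both fall ones among fish 2 to 6). The count was 5320 without the slide of 4 fall fish and 5056 with array weights. Without the southern fall fish, which was fall fish 1 alone, it was 4251. It lay between 1233 and 4251 with single fish left out. With quantile normalization 1169 probes were higher and 1184 lower in winter, so the share of higher calls was 49.7% in place of 59.1%. In 7 settings, this one among them, the count stayed within 1.5 times of 2670. The cause of these changes was not tested. C040R129 turned to -0.31 with the leading score as a covariate, and the other 3 probes named by size of change kept their sign in every setting run. Over 24 settings other than leaving out each fish in turn, the call was lost at C087R153 in 10, at C040R129 in 11 beside that one, at C022R069 in 8 and at C264R049 in 12. Those 24 include the southern setting, which left out fall fish 1 alone.

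Winter and fall females differed at 1 probe without fall fish 2 to 6. Winter females and males differed at 2 probes without fall fish 2 to 6, and at 1 to 3 with single fish left out (3 without fall fish 10 or winter fish 2). The season by area count was 78 with no slide block, 10 with quantile normalization, 0 with males only, and 0 to 12 with single winter fish left out, a choice made after seeing the data. In females alone the differences in length and mass, 2.13 cm and 78.9 g, did not pass the test, nor did 8.0 cm and 281 g in males alone. The difference in measured probes was 7310 in females, where it passed (exact permutation test, adjusted p = 0.0381), and -39.8 in males. The winter males all lay on the same slide, so sex and slide are mixed in these values. Without fall fish 2 to 6 the difference in measured probes was 4269 and did not pass (exact permutation test, adjusted p = 0.0926). No paired analysis was possible because the fish numbers follow record order and pair no fish.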
